A study of Homo sapiens with 12 samples.

Results

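Oxidative phosphorylation is carried out by 5 complexes of the inner mitochondrial membrane. Complexes I and II pass electrons from NADH and succinate to ubiquinone, complex III passes them to cytochrome c, complex IV reduces oxygen, and complex V uses the proton gradient built by complexes I, III and IV to make ATP. Most subunits are encoded in the nucleus and imported, while a small core of complexes I, III, IV and V is encoded by mitochondrial DNA, so that each of these complexes draws on both genomes. The nuclear genes were followed here in pancreatic ductal adenocarcinoma (PDAC) cells that had been depleted of a splicing regulator.

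The genes were chosen by symbol alone, as rows of the deposited tables named NDUFA, NDUFB, NDUFC, NDUFS or NDUFV, COX4 to COX8, UQCR, SDHA to SDHD, or ATP5. The choice gave 84 of 48114 genes. Complex I held 36 (7 core subunits, which carry the catalytic centres, and 29 accessory subunits), complex II 4, complex III 9, complex IV 15 and complex V 19, and 1 further row was a pseudogene (UQCRBP1). Of these, 79 reached the limit set for testing in PANC-1 cells, an average of 10 normalized counts over the 9 libraries, as did 22544 genes in all. The 5 others were COX6A2, COX7A1, COX7B2, ATP5MGL and UQCRBP1. COX8C shares a row with UNC79, so no value can be assigned to it alone, and the row is counted with complex IV.

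Polyadenylated RNA was sequenced from PANC-1 cells (basal-like, mesenchymal) and HPAF-II cells (classical, epithelial), both established PDAC lines, in 12 libraries. PANC-1 cells received a control siRNA (siCtrl), siRNA against QKI (siQKI) or siRNA against RBFOX2 (siRBFOX2), at 40 nM for the targeting siRNAs, and were collected after 48 h. HPAF-II cells received siCtrl, as the labels say, while the study's methods give transfections of PANC-1 only. Each group held 3 libraries, described as biological replicates of one established line per group. QKI and RBFOX2 are RNA-binding proteins that control alternative splicing, and the comparisons ask how the genes stand after loss of either factor and between the lines.

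The targeted genes were low in the libraries labelled for them. QKI was at 24539 to 26150 normalized counts in siCtrl and 4630 to 5453 in siQKI libraries, and RBFOX2 was at 15355 to 15508 in siCtrl and 1712 to 2403 in siRBFOX2 libraries. In siQKI libraries RBFOX2 was also lower, at 12520 to 12778 normalized counts (adjusted p = 0.0207, limma). All 5 epithelial markers were higher in HPAF-II and 4 of 5 mesenchymal markers were lower, while FN1 overlapped. VIM stood at 15.2 counts in 1 HPAF-II library after rescaling to the same total, against a lowest HPAF-II value of 0.283 and 5312 to 5499 in PANC-1. The totals ran from 292248837 to 376192091 count steps in PANC-1 and from 226697015 to 309720537 in HPAF-II libraries. A step is not a sequenced fragment, so precision was read from the replicates. Other genes overlap 40 members, at 10% or more of the member's own level for 8 (ATP5PB, ATP5PD, NDUFA3, ATP5F1E, NDUFC1, NDUFB11, ATP5MGL and UQCRBP1). The values of these 8 are uncertain, since the handling of strand in the counting is not given in the sources used here.

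Promoters of nuclear respiratory genes are known for sites of NRF1, of ETS factors such as GABPA and of YY1. RefSeq (GRCh38.p14) gave 79 promoters of 67 member genes, each reaching from 250 bases before to 50 bases after a start. The NRF1 core GCGCANGCG was found on either strand in 23 of the 79 (29.1%), against 7.52% of all 35116 promoters. The ETS letters CCGGAAGT were in 15.2% of member promoters against 4.14% of all, and the YY1 letters AAGATGGCG in 12.7% against 1.75%. The ERRalpha letters TCAAGGTCA were in 1 member promoter, and CCAAT was as common in member promoters (35.4%) as in all (34.6%). No set of promoters matched to the members for GC content or expression was compared, so the percentages describe the letters only. The 250 bases before the start are shown for 4 genes that the results below turn on, 5′ to 3′ in the direction of transcription, with NRF1 core matches in capitals. SDHA (chr5:218070-218319, + strand) holds 4 matches, UQCRFS1 (chr19:29213152-29213401, - strand) 1, UQCRC1 (chr3:48609647-48609896, - strand) 2 and ATP5IF1 (chr1:28235874-28236123, + strand) none of these letters.
SDHA: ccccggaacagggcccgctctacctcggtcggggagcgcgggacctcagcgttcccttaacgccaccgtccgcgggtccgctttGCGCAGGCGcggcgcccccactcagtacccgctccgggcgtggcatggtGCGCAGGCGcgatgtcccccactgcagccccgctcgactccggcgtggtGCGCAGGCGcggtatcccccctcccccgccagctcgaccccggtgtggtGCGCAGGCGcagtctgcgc
UQCRFS1: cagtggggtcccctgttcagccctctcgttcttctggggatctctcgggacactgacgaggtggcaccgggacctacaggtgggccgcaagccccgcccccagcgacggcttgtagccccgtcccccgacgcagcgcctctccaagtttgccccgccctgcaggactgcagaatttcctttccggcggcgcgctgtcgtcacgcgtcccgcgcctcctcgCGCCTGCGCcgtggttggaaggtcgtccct
UQCRC1: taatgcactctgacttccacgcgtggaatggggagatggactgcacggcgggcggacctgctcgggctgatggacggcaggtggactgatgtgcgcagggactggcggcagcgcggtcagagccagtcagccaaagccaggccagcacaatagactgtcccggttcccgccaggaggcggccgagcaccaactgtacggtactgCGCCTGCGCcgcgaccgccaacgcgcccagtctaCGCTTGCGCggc
ATP5IF1: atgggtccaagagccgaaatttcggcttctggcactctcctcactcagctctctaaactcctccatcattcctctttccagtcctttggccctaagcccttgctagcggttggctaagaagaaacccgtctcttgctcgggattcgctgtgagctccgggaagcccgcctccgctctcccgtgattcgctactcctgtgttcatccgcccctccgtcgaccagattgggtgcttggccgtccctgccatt
The 4 matches of SDHA are the same 9 letters in a stretch that repeats. A match is a description of letters and not a bound site.

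Knockdown of QKI was followed by small changes in 16 of the 79 tested members, with SDHA, several accessory subunits of complex I and subunits of complex IV higher, and a few complex I and III subunits lower. By limma over all genes (adjusted p under 0.05), 12 members were higher, 4 were lower and 63 did not pass. Over all 22544 genes tested, 33% passed, 14.9% higher and 18.1% lower. The members' share of higher calls (15.2%) was near that background, and their share of lower calls (5.06%) was below it. Over the 14542 genes with a protein-coding transcript of known length, 18.8% were higher and 26.3% lower, and both shares of the members were below these. The median log2 fold change was 0.05 for the members and 0.03 for all genes tested, with a median standard error of 0.06 per member. COX6B2 was the member that passed with a change of at least 1.5-fold. In bulk libraries, a change in the share of a type of cell and a change in the RNA of each cell cannot be told apart.

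**Figure D1:**
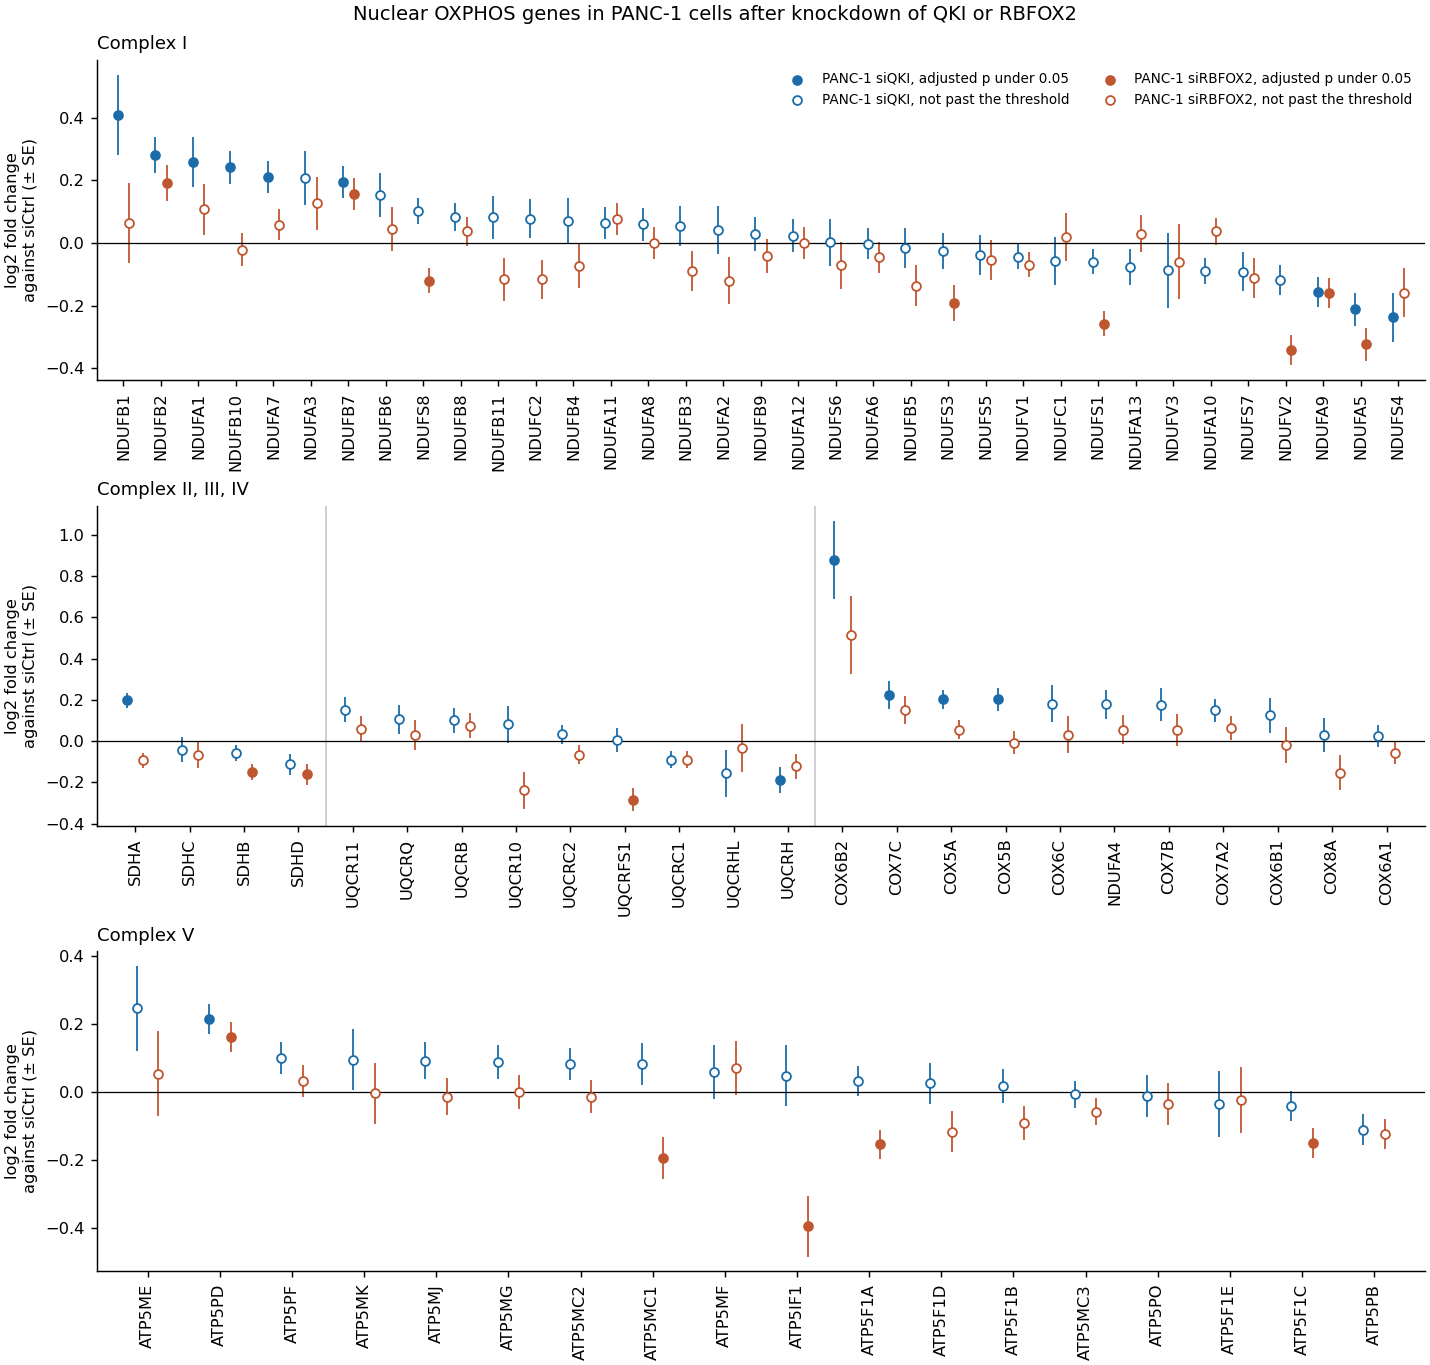
Log2 fold change against siCtrl (y axis, ± SE) of tested members (x axis, by complex) after knockdown of QKI or RBFOX2 in PANC-1 cells, 3 libraries per group, with members past the threshold marked as in the legend. Every complex IV gene drawn lies above 0 after siQKI (untested genes and COX8C, which shares its row, are left out), and the core subunits of complex I that are drawn lie below 0 after siRBFOX2.

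SDHA, the flavoprotein that oxidizes succinate in complex II, stood at 39834, 40993 and 41846 normalized counts in siCtrl and at 47253, 45997 and 47476 in siQKI libraries. The siRBFOX2 libraries held 38317, 37920 and 38777. All siQKI libraries lay above all siCtrl libraries, which lay above all siRBFOX2 libraries. The log2 fold change was 0.20 ± 0.04 (SE) for siQKI (adjusted p = 0.00051, limma) and -0.09 ± 0.04 for siRBFOX2, which did not pass (adjusted p = 0.0721, limma). Between the knockdowns it was 0.29 (adjusted p = 3.2e-05, limma). SDHA passed in siQKI and between the knockdowns under all 19 alternatives run at the same threshold.

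The other subunits of complex II did not follow SDHA. SDHB, the iron-sulfur subunit, held 34782, 36501 and 34460 normalized counts in siCtrl and 32519, 30503 and 32278 in siRBFOX2 libraries, which did not overlap. It fell by 0.15 ± 0.04 on the log2 scale in siRBFOX2 (adjusted p = 0.0115, limma; 0.00897 to 0.124 over the alternatives, and above the threshold without siCtrl replicate 2) and had -0.06 in siQKI (adjusted p = 0.306, limma). The siRBFOX2 call was also lost with libraries scaled to their total without chrM (the mitochondrial rows) and without the mean-variance trend. Leaving out siCtrl replicate 3 and siRBFOX2 replicate 2 together removed it too. SDHD, a membrane anchor, fell by 0.16 ± 0.05 in siRBFOX2 (adjusted p = 0.024, limma), with overlapping libraries. That call was lost without siCtrl replicate 2, siCtrl replicate 3 or siRBFOX2 replicate 2 (adjusted p 0.00272 to 0.2 over the alternatives, limma). Upper quartile scaling, the total without chrM, a fit of only the groups compared and a fit without the trend also removed it. SDHC, the other anchor, did not pass in any comparison, with -0.04 in siQKI and -0.07 in siRBFOX2.

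In complex I, 6 subunits were higher and 3 lower in siQKI, all of them accessory, and none of the 7 core subunits passed by limma (1 was higher and 1 lower at an unadjusted p under 0.05). NDUFB2, a subunit of the membrane arm, held 29555, 34265 and 28708 normalized counts in siCtrl against 38171, 36776 and 37079 in siQKI libraries (log2 0.28 ± 0.06, adjusted p = 0.00136, limma). NDUFB10, also of the membrane arm, held 51619, 52915 and 46773 against 63845, 56532 and 58433 (0.24 ± 0.05, adjusted p = 0.0022, limma). For both genes the groups did not overlap, and the call held under all 19 alternatives. NDUFB1, a small membrane-arm subunit, held 9771, 10036 and 6653 in siCtrl against 12133, 11144 and 11297 in siQKI (0.41 ± 0.13, adjusted p = 0.0227, limma). Its low siCtrl value lies in replicate 3, and the call was lost without that library or without siQKI replicate 1 (adjusted p 0.0068 to 0.143 over the alternatives, limma). NDUFA1, NDUFA7 and NDUFB7 also rose in siQKI, by 0.19 to 0.26 on the log2 scale.

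NDUFA5, an accessory subunit at the base of the peripheral arm, was lower after both knockdowns. It held 29607, 28136 and 27926 normalized counts in siCtrl, 24560, 23865 and 25580 in siQKI and 21721, 21960 and 24899 in siRBFOX2 libraries. Both knockdown groups lay below all siCtrl libraries. It fell by 0.21 ± 0.05 in siQKI (adjusted p = 0.00565, limma) and by 0.32 ± 0.05 in siRBFOX2 (adjusted p = 0.00032, limma). Its siQKI call was lost with the total without chrM and without the trend (adjusted p 0.00115 to 0.0566 over the alternatives, limma). Its siRBFOX2 call held under all 19 alternatives. NDUFA9, an accessory subunit near the ubiquinone site, held 18016, 18606 and 18311 in siCtrl, 17065, 16768 and 15488 in siQKI and 16756, 15727 and 16728 in siRBFOX2 libraries. It fell by 0.16 ± 0.05 in each knockdown (adjusted p = 0.0181 and 0.0206, limma), and its siQKI call was lost without siCtrl replicate 2 or siQKI replicate 3 (adjusted p 0.0136 to 0.158 over the alternatives, limma). That siQKI call was also lost with upper quartile scaling, with the total without chrM and without the trend. The siRBFOX2 call of NDUFA9 was lost with upper quartile scaling and with the total without chrM. Leaving out siCtrl replicate 3 and siRBFOX2 replicate 2 together also removed it. NDUFS4, a subunit of the NADH-oxidizing end, fell by 0.24 in siQKI with overlapping libraries.

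In complex IV, 4 of 12 tested rows were higher in siQKI and none was lower by limma (7 and 0 at an unadjusted p under 0.05), where 14.9% of all genes were higher and 18.1% lower. Of the 22544 genes tested, 11833 had a positive log2 fold change. All 12 rows of complex IV had one, with a median of 0.18. The median stayed between 0.15 and 0.25 under the other scalings and without siCtrl replicate 3 and siRBFOX2 replicate 2. Over the 79 members the siQKI fold change had a Spearman rho of -0.40 with transcript length, against 0.06 over 14542 genes. Members of at most 1000 bases had a median of 0.07, and other genes of that length had -0.05. What part length has in the complex IV values was not tested. COX5A, on the matrix side of the complex, held 97852, 102362 and 95263 normalized counts in siCtrl against 120812, 110599 and 109033 in siQKI (0.20 ± 0.05, adjusted p = 0.00299, limma). COX5B, its neighbour on the same side, held 67081, 67608 and 60889 against 81114, 71727 and 72322 (0.20 ± 0.06, adjusted p = 0.0121, limma). COX7C, a small membrane subunit, held 59883, 66024 and 55110 against 74466, 69882 and 66415 (0.22 ± 0.07, adjusted p = 0.0192, limma). In all 3 genes siQKI lay above siCtrl without overlap, and siQKI replicate 1 was the highest library. The COX7C call was lost without siCtrl replicate 3 or siQKI replicate 1 (adjusted p 0.00124 to 0.127 over the alternatives, limma). In siRBFOX2, no complex IV row passed by limma, and 2 were higher and 0 lower at an unadjusted p under 0.05.

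The tissue isoforms of complex IV were at or near 0 with 1 exception. COX6B2, the testis form of the COX6B subunit, held 731, 635 and 683 normalized counts in siCtrl, 1610, 1376 and 894 in siQKI and 858, 1212 and 888 in siRBFOX2 libraries. Both knockdown groups lay above siCtrl, and siQKI ranged widely. The siQKI mean was 189% of the siCtrl mean (log2 0.88 ± 0.19, adjusted p = 0.00197, limma), and the siRBFOX2 mean was 144% (0.51 ± 0.19, adjusted p = 0.0585, limma). Its common form COX6B1 held 111300 to 130152 in siCtrl and 121139 to 146303 in siQKI and passed no test (log2 0.12, adjusted p = 0.308, limma). COX6A2 and COX7A1, the heart and muscle forms, reached at most 37.3 and 13.9 normalized counts in a PANC-1 library, and COX7B2, another testis form, at most 7.0. The common forms COX6A1, COX7A2, COX7B and COX8A did not pass in any knockdown, with log2 fold changes of 0.02 to 0.18 in siQKI and -0.15 to 0.06 in siRBFOX2.

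**Figure D2:**
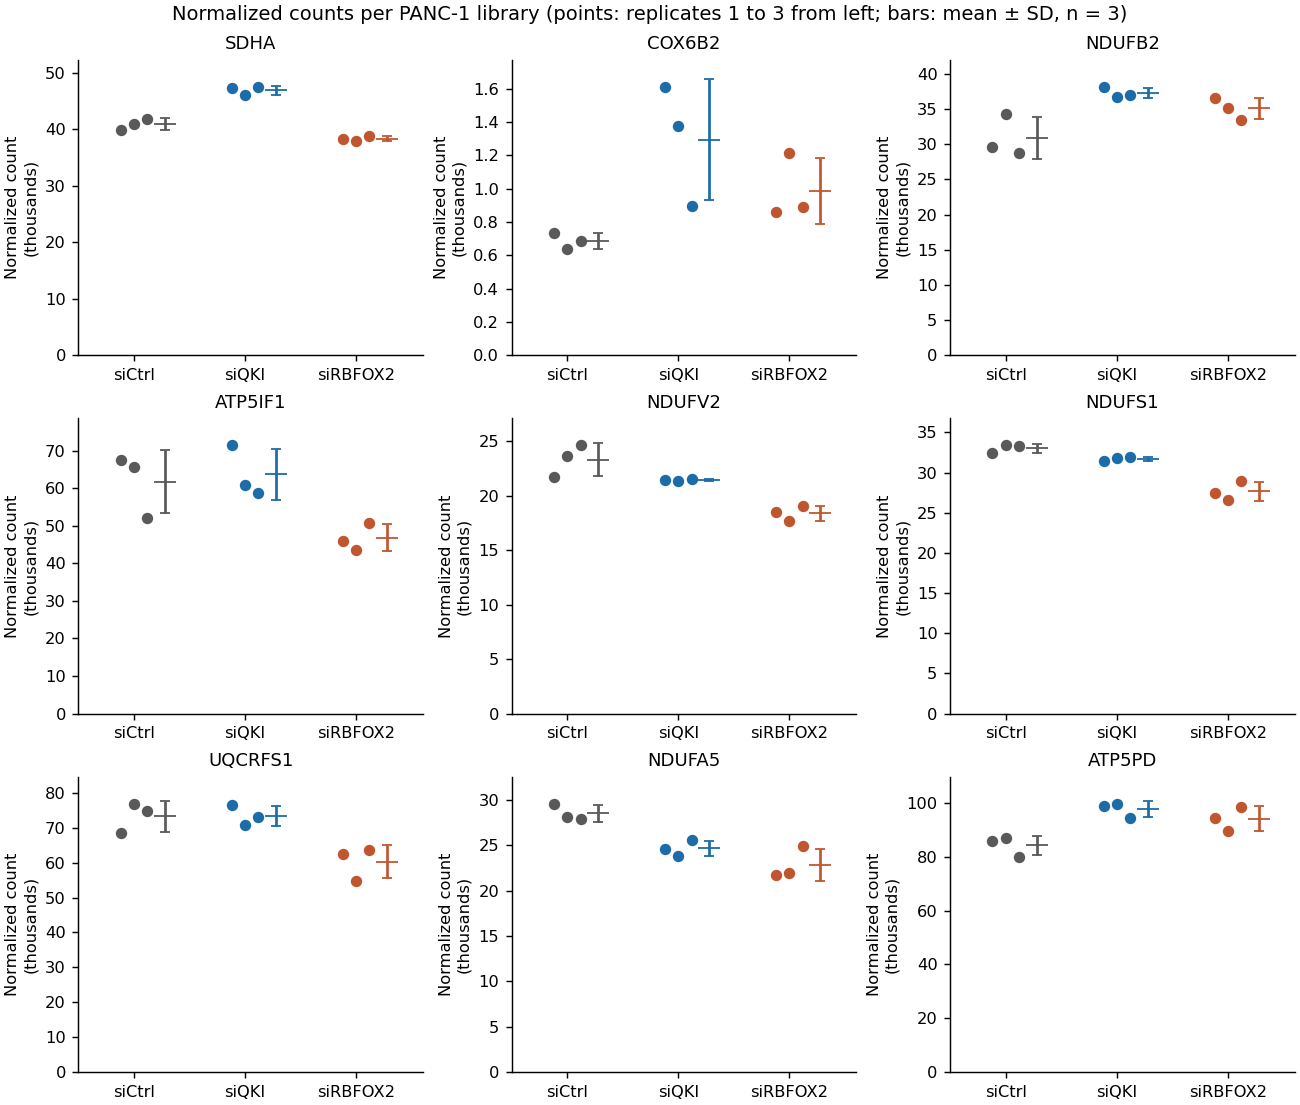
Normalized counts in units of 1000 (y axis, from 0) of 9 members in each PANC-1 library, with points for replicates 1 to 3 and a bar for the mean ± SD (n = 3) of siCtrl, siQKI and siRBFOX2. SDHA separates all 3 groups, ATP5IF1, NDUFV2, NDUFS1 and UQCRFS1 are lowest in siRBFOX2, and NDUFA5 is lower and ATP5PD higher in both knockdowns.

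In complex III, UQCRH alone passed in siQKI. UQCRH, the hinge subunit that meets cytochrome c, held 92785, 85529 and 86277 normalized counts in siCtrl and 78204, 77742 and 76199 in siQKI libraries. The groups did not overlap, and UQCRH fell by 0.19 ± 0.06 (adjusted p = 0.0302, limma). The call was lost without siCtrl replicate 1 and without each siQKI replicate in turn (adjusted p 0.00206 to 0.155 over the alternatives, limma). Upper quartile scaling, the total without chrM and a fit without the trend also removed it. UQCRHL, a near-identical intronless copy, held 8390.4 to 10602 in siQKI and 8641 to 11637 in siCtrl libraries and did not pass (log2 -0.16, adjusted p = 0.342, limma), and reads of the pair may be split between the rows. In complex V, 1 subunit rose in siQKI and none fell by limma (2 were higher and 1 lower at an unadjusted p under 0.05). ATP5PD, of the peripheral stalk, held 85721, 86888 and 80068 in siCtrl, 98943, 99771 and 94440 in siQKI and 94320, 89643 and 98708 in siRBFOX2 libraries. Both knockdowns lay above siCtrl (log2 0.21 ± 0.04, adjusted p = 0.00143, and 0.16 ± 0.04, adjusted p = 0.0133, limma). ATP5PD overlaps KCTD2, which stood at 18.4% of its level, and its siRBFOX2 call was lost without siCtrl replicate 3 or siRBFOX2 replicate 3 (adjusted p 0.00073 to 0.093 over the alternatives, limma).

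Knockdown of RBFOX2 was followed by lower levels of core subunits of complex I, of UQCRFS1, of ATP5IF1 and of parts of complexes II and V. By limma, 3 members were higher, 13 lower and 63 did not pass. Of all genes tested, 26.5% passed, 12% higher and 14.5% lower, so the members' share of lower calls (16.5%) was near the background and their share of higher calls (3.80%) was below it. Over the 14542 genes with a protein-coding transcript of known length, 15.3% were higher and 21.6% lower, and both shares of the members were below these. The median log2 fold change was -0.04 for the members and 0.01 for all genes, and with libraries scaled to their total without chrM it was 0.03, so that its sign depends on the scaling. The siCtrl libraries are shared with the siQKI comparison. No change reached 1.5-fold.

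All 7 core subunits of complex I had a negative log2 fold change in siRBFOX2 and 4 of them passed, NDUFV2, NDUFS1, NDUFS3 and NDUFS8. Of the 22544 genes tested, 10992 had a negative log2 fold change. NDUFV2, an iron-sulfur subunit of the NADH-oxidizing end, held 21673, 23657 and 24623 normalized counts in siCtrl and 18467, 17649 and 19048 in siRBFOX2 libraries. NDUFS1, the largest core subunit, held 32400, 33404 and 33361 against 27517, 26566 and 28912. Both genes were lower without overlap, by 0.34 ± 0.05 and 0.26 ± 0.04 on the log2 scale (adjusted p = 0.00011 and 0.00021, limma), and passed under all 19 alternatives. In siQKI, NDUFV2 had -0.12 (adjusted p = 0.0797, limma) and NDUFS1 -0.06 (adjusted p = 0.296, limma). NDUFS3 and NDUFS8, which lie between the NADH-oxidizing end and the membrane arm, fell by 0.19 and 0.12 in siRBFOX2 (adjusted p = 0.0213 and 0.0416, limma). NDUFV1, which binds NADH, and NDUFS7, an iron-sulfur subunit, had -0.07 and -0.11 and did not pass. The median of the 7 was -0.12, and it stayed negative, at -0.05 to -0.11, under the other scalings and without siCtrl replicate 3 and siRBFOX2 replicate 2, with 2 or 3 of the 7 passing. The calls of NDUFS3 and NDUFS8 were both lost with the total without chrM, and also without those 2 libraries. Of the 29 accessory subunits, 2 were higher (NDUFB2 and NDUFB7) and 2 lower (NDUFA5 and NDUFA9).

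UQCRFS1, the Rieske iron-sulfur protein of complex III, held 68439, 76950 and 74721 normalized counts in siCtrl, 76548, 70926 and 73091 in siQKI and 62585, 54782 and 63548 in siRBFOX2 libraries. All siRBFOX2 libraries lay below the other 6. It fell by 0.28 ± 0.06 in siRBFOX2 (adjusted p = 0.00167, limma), and it had 0.00 in siQKI (adjusted p = 0.969, limma). The core subunits UQCRC1 and UQCRC2, which face the matrix, had -0.09 and -0.07 in siRBFOX2 and did not pass.

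ATP5IF1, which inhibits ATP hydrolysis by complex V, held 67491, 65756 and 52110 normalized counts in siCtrl, 71444, 60986 and 58655 in siQKI and 46011, 43674 and 50760 in siRBFOX2 libraries. The siRBFOX2 libraries lay below all others, although siCtrl replicate 3 came close to them. ATP5IF1 fell by 0.39 ± 0.09 in siRBFOX2, to 75.8% of the siCtrl mean (adjusted p = 0.00421, limma). Of the alternatives, only the fit without the trend lost this call (adjusted p = 0.0744, limma). ATP5MC1, 1 of 3 genes for the same mature c subunit, held 83680, 95881 and 90362 in siCtrl and 83509, 72159 and 80380 in siRBFOX2 libraries. It fell by 0.19 ± 0.06 (adjusted p = 0.0293, limma), a call lost without siCtrl replicate 2, siCtrl replicate 3 or siRBFOX2 replicate 2 (adjusted p 0.0125 to 0.225 over the alternatives, limma). Upper quartile scaling, the total without chrM and a fit without the trend also removed this call. ATP5MC2 and ATP5MC3, the other genes for that subunit, had -0.01 and -0.06. ATP5F1A and ATP5F1C, the alpha and gamma subunits of the catalytic head, each fell by 0.15 (adjusted p = 0.0168 and 0.0197, limma). Both calls were lost with the total without chrM, and also without siCtrl replicate 3 and siRBFOX2 replicate 2 together. In each of these settings ATP5IF1 was the 1 member of complex V still lower, and with upper quartile scaling 2 were lower.

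Some libraries stood apart from their group over the members as a whole. Replicate 2 of siRBFOX2 was below both other replicates for 75 of 79 members, with a median log2 difference of -0.15, and siCtrl replicate 3 was below both for 47, with -0.10. Replicate 1 of siQKI was above both for 58 members. Over all genes these medians were within 0.02 of 0. Without siCtrl replicate 3 and siRBFOX2 replicate 2, a choice made after seeing the data, 13 members were higher and 5 lower in siQKI, 1 higher and 6 lower in siRBFOX2, and 12 higher and 3 lower between the knockdowns.

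The difference between the knockdowns was tested by itself, without the siCtrl means. By limma, 14 members were higher and 1 lower in siQKI than in siRBFOX2, against 21.5% of all genes passing, 9.93% higher and 11.6% lower. Of the 79 members, 68 had a higher mean in siQKI, as did 11440 of the 22544 genes tested. The median log2 difference was 0.09 for the members against 0.01 for all genes. It was 0.04 without siRBFOX2 replicate 2, with 9 members higher and 2 lower, and 9 members were higher without siQKI replicate 1. The largest differences past the threshold were those of ATP5IF1 (0.44, adjusted p = 0.00219, limma), UQCR10 (0.32, adjusted p = 0.0176, limma), SDHA, UQCRFS1 (0.29, adjusted p = 0.00182, limma), ATP5MC1 (0.28, adjusted p = 0.00435, limma) and NDUFB10 (0.26, adjusted p = 0.00194, limma). UQCR10, a small subunit of complex III, held 12963, 10886 and 11609 normalized counts in siQKI against 9558, 9091 and 9656 in siRBFOX2 libraries. It passed against siCtrl in neither knockdown, and its call between them was lost without siQKI replicate 1 or siRBFOX2 replicate 2 (adjusted p 0.0017 to 0.132 over the alternatives, limma). Of the core subunits of complex I, NDUFS1, NDUFS8 and NDUFV2 were higher in siQKI, by 0.20 to 0.22. NDUFA10, an accessory subunit, was lower by 0.13 in siQKI (adjusted p = 0.0457, limma), a call that 6 of 19 alternatives kept (adjusted p 0.0119 to 0.188, limma).

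Set side by side, NDUFA5 and NDUFA9 fell in both knockdowns, ATP5PD, NDUFB7 and NDUFB2 rose in both, and no member passed in opposite directions. Both comparisons share the siCtrl libraries. The rise of NDUFB2 in siRBFOX2 was 0.19 (adjusted p = 0.0227, limma), with overlapping libraries. That call was lost without siCtrl replicate 3 and siRBFOX2 replicate 2 together. With libraries scaled to their total without chrM, neither NDUFA5 nor NDUFA9 passed in siQKI, and NDUFA9 did not pass in siRBFOX2. The siRBFOX2 call of NDUFB7 (0.16, adjusted p = 0.0375, limma) was kept by 12 of 19 alternatives (adjusted p 0.00365 to 0.183, limma), and was lost without siCtrl replicate 3, siQKI replicate 2, siRBFOX2 replicate 1 or siRBFOX2 replicate 3. Of all genes tested, 33% passed in siQKI and 26.5% in siRBFOX2, while calls in both or in neither were counted for the members only. In neither knockdown did 52 members pass. Among them were UQCRC1 and UQCRC2, ATP5F1B, the catalytic beta subunit of complex V, and NDUFA4, now assigned to complex IV.

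As a share of all normalized counts, the members made up 1.29% ± 0.05 (SD, n = 3) in siCtrl, 1.39% ± 0.05 in siQKI and 1.29% ± 0.05 in siRBFOX2 libraries. The siQKI libraries ran from 1.35% to 1.44%, above the 1.23% to 1.33% of siCtrl, and siRBFOX2 (1.24% to 1.34%) overlapped siCtrl. Complex IV had 0.299% ± 0.017 in siQKI against 0.261% ± 0.014 in siCtrl. HPAF-II had 1.38% ± 0.21, with replicate 3 the highest library of all 12 at 1.63% and the other replicates at 1.27% and 1.25%. Totals of normalized counts were 328074429 to 333259374 in siQKI and 338822831 to 348181159 in siCtrl libraries, so part of the higher siQKI share lies in the smaller total. The shares are dominated by the most abundant members and carry no test.

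**Figure D3:**
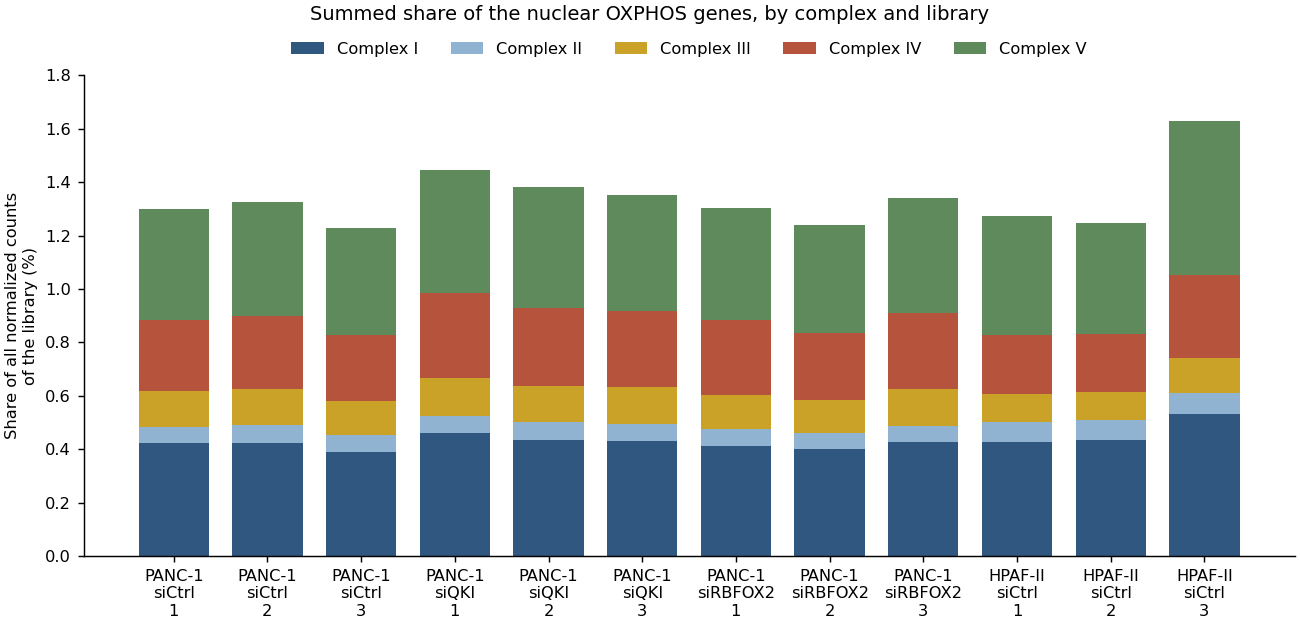
Share of all normalized counts of a library (y axis, %) taken by the members, stacked by complex, in each of the 12 libraries (x axis). The siQKI bars reach 1.35% to 1.44% and the siCtrl bars 1.23% to 1.33%, and HPAF-II replicate 3 is the tallest at 1.63%.

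The mitochondrial partners of these subunits were read from rows of chrM that carry no symbol, named here by their coordinates on hg38 and by the annotation at that place (GENCODE, GRCh38). The row chrM:1670-5512, which spans MT-RNR2, MT-ND1 and MT-ND2, was higher in siQKI (0.26, adjusted p = 0.00088, limma) and in siRBFOX2 (0.20, adjusted p = 0.0073, limma). The row chrM:5584-12142, which spans MT-CO1, MT-CO2, MT-ATP8, MT-ATP6, MT-CO3, MT-ND3, MT-ND4L and MT-ND4, was higher in both (0.16 and 0.19, adjusted p = 0.0248 and 0.0117, limma). MT-CYB at chrM:14761-15953 passed in siRBFOX2 (0.24, adjusted p = 0.0011, limma) and had 0.11 in siQKI (adjusted p = 0.0769, limma). The row of MT-ND5 and MT-ND6 at chrM:12337-14644 had 0.15 in siRBFOX2 (adjusted p = 0.0456, limma) and -0.02 in siQKI. All chrM rows together took 3.39% to 3.70% of a siCtrl library, 4.16% to 4.24% in siQKI and 3.98% to 4.39% in siRBFOX2. With libraries scaled to their total without chrM, 28 members were higher and none lower in siQKI, and 7 were higher and 5 lower in siRBFOX2. All genes moved as well. Under this scaling 31.9% of them passed in siQKI and 25.3% in siRBFOX2, and 59.7% and 62.6% of these calls were higher. Their median log2 fold change was 0.10 and 0.08. The members' median differed from it by 0.03 in siQKI and by -0.05 in siRBFOX2, as in the main fit.

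Other genes of the pathway were counted in lists by function. TFAM, which packages mitochondrial DNA and starts its transcription, rose in both knockdowns. It held 30094 to 32183 normalized counts in siCtrl, 54844 to 57999 in siQKI and 45100 to 45792 in siRBFOX2 libraries, with no overlap between groups (0.87 and 0.55, adjusted p = 4.8e-10 and 1.3e-07, limma). TFB2M and TEFM, factors of mitochondrial transcription start and elongation, fell in both (-0.51 and -0.47 in siQKI, -0.19 and -0.32 in siRBFOX2). POLRMT, the mitochondrial RNA polymerase, rose in siQKI (0.27, adjusted p = 0.00355, limma). GABPB1, the partner subunit of GABPA, fell in siQKI and rose in siRBFOX2 (-0.24 and 0.19, adjusted p = 0.00805 and 0.0394, limma). GABPA and ESRRA, which act on nuclear respiratory genes, fell in siRBFOX2 (-0.24 and -0.19), and PPRC1, a coactivator, fell in siQKI (-0.17). Of 13 such regulators, 2 were higher and 4 lower in each knockdown. Over all genes tested, 14.9% were higher and 18.1% lower in siQKI, and 12% were higher and 14.5% lower in siRBFOX2. With libraries scaled to their total without chrM, 2 regulators were higher and 1 lower in siRBFOX2. PPARGC1A, the PGC-1alpha coactivator, had 17.3 normalized counts in siQKI against 82.5 in siRBFOX2 on average and passed between the knockdowns alone (-2.24, adjusted p = 0.0355, limma).

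Of the subunits outside the naming rule, CYC1, cytochrome c1 of complex III, rose in both knockdowns (0.27 and 0.15, adjusted p = 0.00071 and 0.0391, limma), the second with overlapping libraries. NDUFAB1, the acyl carrier protein bound to complex I, fell in both (-0.22 and -0.21, adjusted p = 0.00388 and 0.00813, limma). COX4I1, CYCS and COX7A2L passed in neither, and COX4I2, a lung form, was listed at 0 in all libraries. Of 56 assembly factors of the complexes, 7 were higher and 17 lower in siQKI, where 14.9% of all genes were higher and 18.1% lower. In siRBFOX2, 8 were higher and 16 lower, where 12% of all genes were higher and 14.5% lower. The balance depends on the scaling, since with libraries scaled to their total without chrM 9 were higher and 10 lower in siQKI, and 13 were higher and 8 lower in siRBFOX2.

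Between the lines the members differed by much more than between the knockdowns, in both directions. The tables of HPAF-II and PANC-1 were normalized apart, so values were rescaled to a total of 1000000 per library, called rescaled counts here, and described with no test. A member was called where the group means differed at least 2-fold and the libraries did not overlap. On 82 expressed members, 7 were higher and 8 lower in HPAF-II, against 42.7% of 24673 expressed genes called, 21.1% higher and 21.6% lower. The members' share called was 18.3%. The libraries of the lines overlapped for 42 of the 82 members and for 8948 of the 24673 expressed genes. The median log2 ratio was 0.02 for the members and 0.08 for all genes. With the values as deposited, 2 members were higher and the median was -0.26. Rescaling removes a size factor that is constant within a library, but any other difference between the tables cannot be told apart from the line.

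SDHA had the largest ratio. It stood at 118, 118 and 121 rescaled counts in PANC-1 and at 366, 379 and 342 in HPAF-II, 3.05-fold higher, and all HPAF-II libraries were close to each other. Rows of SDHA pseudogenes are in the files as well, so the split of reads among the copies is uncertain. SDHB was lower in HPAF-II without overlap (69, 66 and 67 against 103, 105 and 100 rescaled counts, log2 -0.60), SDHD was lower (log2 -0.63) and SDHC was nearly level (log2 0.09). ATP5IF1, the inhibitor of complex V, had 199, 189 and 151 rescaled counts in PANC-1 and 412, 417 and 510 in HPAF-II (log2 1.31). NDUFS6, a zinc-binding accessory subunit, had 423, 375 and 331 against 892, 909 and 798 (1.20). NDUFA13, a complex I subunit also known as GRIM19, had 115, 118 and 101 against 226, 280 and 259 (1.19), and COX6C, a small subunit of complex IV, had 156, 140 and 121 against 306, 333 and 294 (1.16). NDUFA7, of the NADH-oxidizing end, was 2.14-fold higher but had a log2 ratio of 0.85 without replicate 3, below the 2-fold limit.

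UQCRFS1 and UQCRC1 of complex III had the lowest ratios of the members whose libraries did not overlap. UQCRFS1 had 202, 221 and 216 rescaled counts in PANC-1 and 36.3, 31.9 and 74.4 in HPAF-II (log2 -2.16). UQCRC1 had 217, 218 and 217 against 46.0, 45.7 and 69.4 (-2.02). For both genes all HPAF-II libraries were far below PANC-1, and replicate 3 was the highest of them. COX6B1 had 344, 374 and 322 rescaled counts against 84.2, 84.9 and 203 (-1.48), and COX6B2 had 2.16, 1.82 and 1.98 against 0.873, 0.578 and 1.24 (-1.14), so both forms of that complex IV subunit were lower. NDUFB2 (-1.22) and NDUFS8 (-1.15) of complex I were lower without overlap, with replicate 3 again closest to PANC-1, at 67.8 rescaled counts for NDUFB2 against 22.3 and 25.2 in the other replicates. ATP5MC1 was lower (-1.09), ATP5MC2 was higher without overlap (0.37) and ATP5MC3 overlapped (-0.38).

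**Figure D4:**
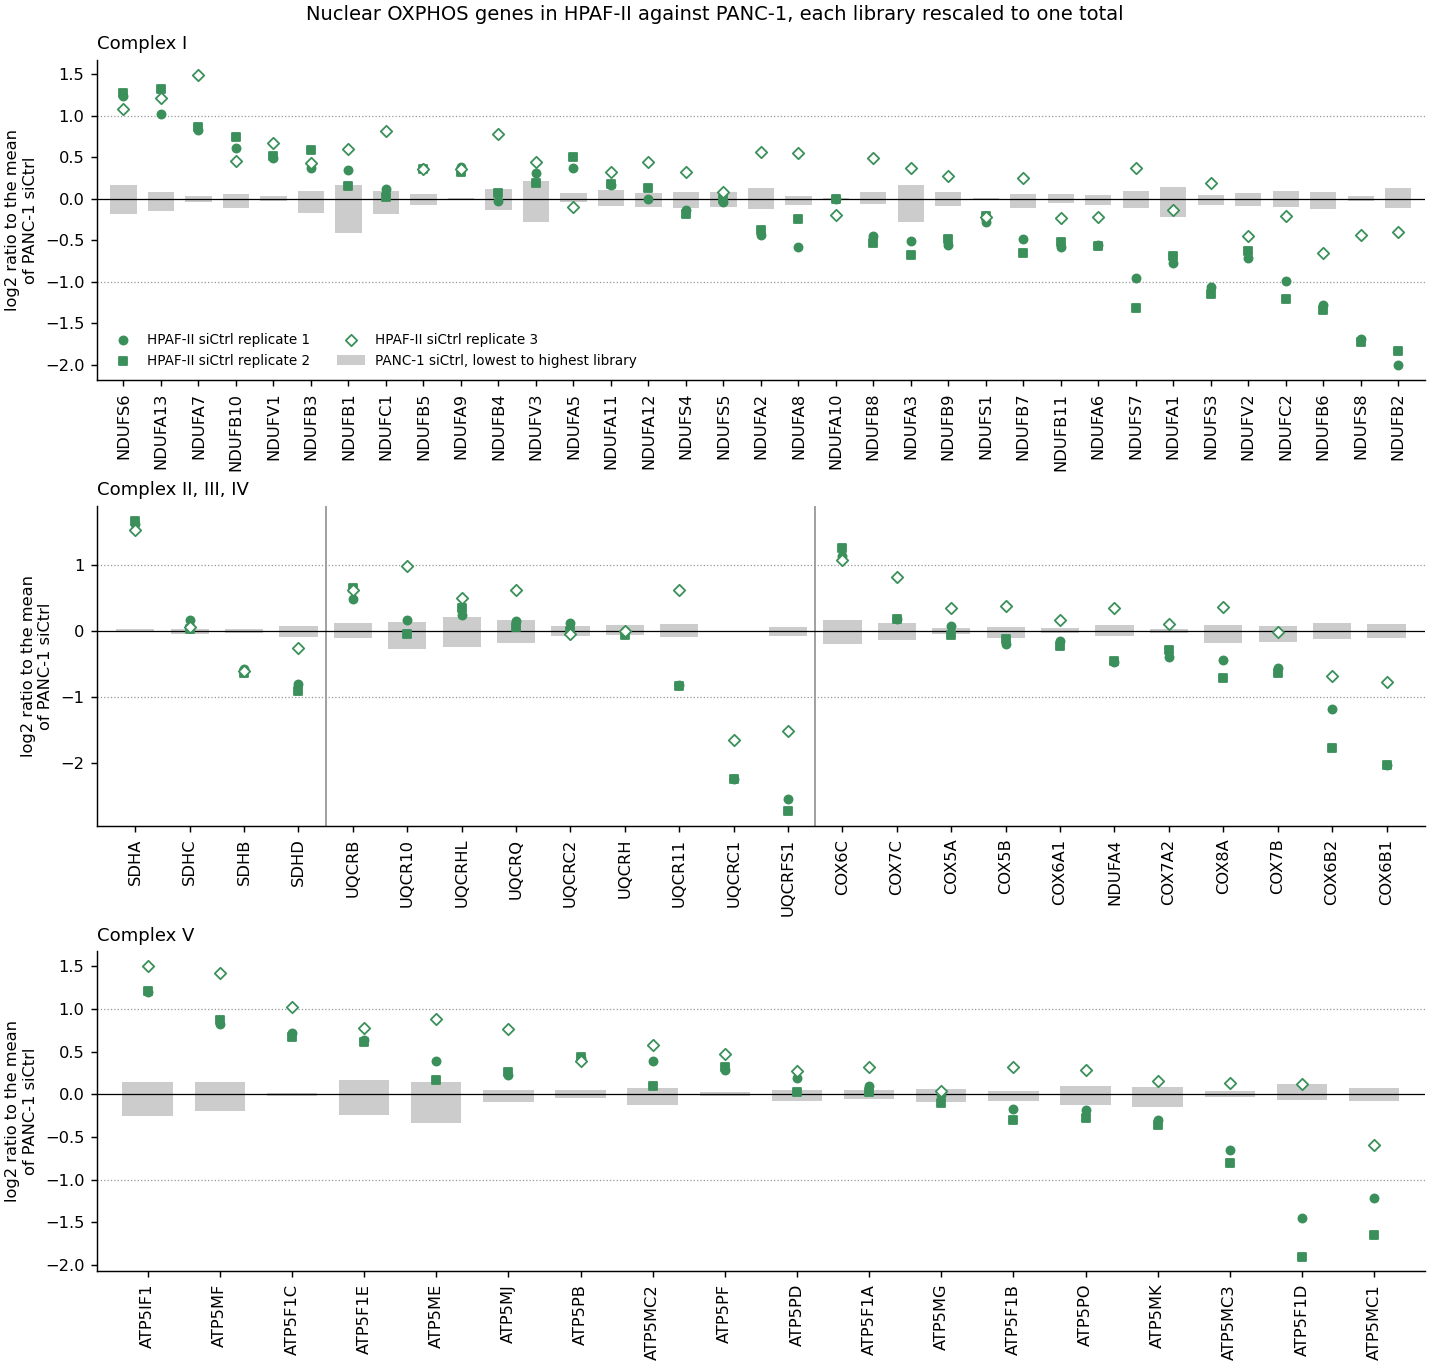
Log2 ratio of each HPAF-II siCtrl library to the mean of PANC-1 siCtrl (y axis) for members expressed well enough to be tested (x axis, by complex), with grey bars for the range of the 3 PANC-1 libraries and dotted lines at a 2-fold difference. SDHA, NDUFS6 and ATP5IF1 are high and UQCRFS1, UQCRC1 and COX6B1 low in all 3 HPAF-II libraries, while replicate 3 (open diamonds) lies above the others for most members.

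HPAF-II replicate 3 stood above both other replicates for 62 of 79 members, with a median log2 difference of 0.45, while the median over all genes was 0.02. For 8 members it was more than 2-fold above the mean of the others. Its chrM share was 2.86%, against 5.99% and 5.52% in the other replicates. Without it, 5 members were called higher and 12 lower, and the median ratio was -0.02. The calls of SDHA, ATP5IF1, NDUFS6, NDUFA13, COX6C, UQCRFS1 and UQCRC1 lay past the 2-fold limit also without replicate 3, with log2 ratios of 1.65, 1.20, 1.26, 1.18, 1.20, -2.64 and -2.25.

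The difference of replicate 3 moved with the GC content of transcripts. Across 12270 genes that averaged 100 normalized counts or more it had a Spearman rho of 0.63 with GC content, and across 78 members 0.35, as a description over genes that share the same 3 libraries. In every GC range the members' median lay above that of all genes. Up to 45% GC it was 0.22 for 19 members against -0.35 for 3803 genes, and from 50% to 55% it was 0.53 for 18 members against 0.01 for 1953 genes. What part library preparation has in these values was not tested.

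**Figure D5:**
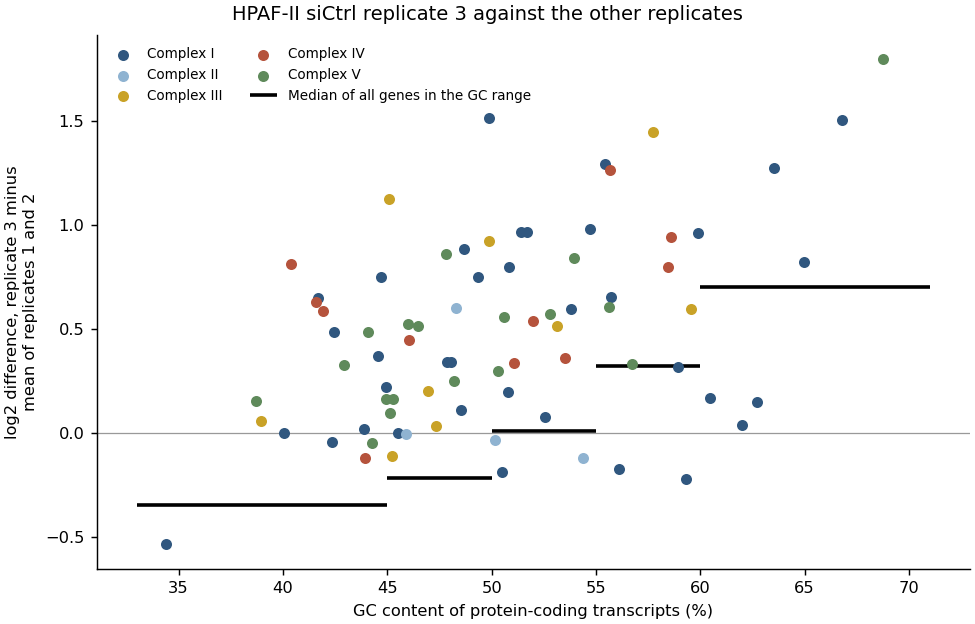
Log2 difference of HPAF-II siCtrl replicate 3 from the mean of replicates 1 and 2 (y axis) against the GC content of protein-coding transcripts (x axis, %) for the members, coloured by complex, with black bars for the median of all genes in each GC range. Most members lie above 0 and above the black bar of their range, also at low GC, where that bar is at -0.35.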

How the data were processed

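PolyA-selected libraries were sequenced in a 150 bp paired-end format. The submitters' processing notes name FastQC, STAR 2.7.5a, SAMtools, Picard, DESeq2 and hg38. The deposited values are a signal per gene, scaled by the authors with DESeq2 size factors in 1 table for PANC-1 and 1 for HPAF-II. The factors read from the steps of the values were 0.877 to 1.15 and 0.810 to 1.09. Of values of 1 to 30 steps, 82.1% to 84.8% could be divided by 3, which shows that steps are not reads, and no count test was run. Sequencing depth is unknown, and strand and read-pair handling are not given in the sources used here.

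The PANC-1 comparisons used limma 3.58.1 (R 4.3.3; mean-variance trend, two-sided) on log2(normalized count + 1) in 1 fit of 9 libraries, over genes with a mean of at least 10, with Benjamini-Hochberg adjustment over all 22544 genes and a threshold of 0.05. Fold changes are on this scale, which understates those of low genes. On simulated data of the siQKI comparison (22544 genes), 72 of 100 genes changed by 1 and 52 of 100 changed by 0.5 on the log2 scale were recovered, beside 14 false calls. The simulation changed few genes and drew noise independently for each gene. In the data 7432 genes passed in siQKI, and single libraries moved most members together. These figures are therefore a check of the fit and not error rates for the members. HPAF-II and PANC-1 were compared by values rescaled to 1000000 per library, with 0.01 added before the log2. Tables were made with Python 3.11.15, pandas 2.3.3, numpy 2.4.6 and scipy 1.17.1, figures with matplotlib 3.10.9.

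Members and lists were chosen with earlier results of these data known. Genes were named by a rule: the 6 members that rose most and the 6 that fell most in each contrast among those past the threshold without overlap of libraries, the 6 highest and 6 lowest between the lines, the complex II subunits and isoform pairs, and subunits outside the naming rule and regulators that passed. The counts cover all members, of which 1 is not reported here by itself. Further members that passed, or that stand beside a named subunit, were named after their values were seen. Alternatives covered the pseudocount, the low-value filter, the scaling, the samples in the fit, a replicate block, the trend, stricter thresholds and leaving out each library.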

Additional observations from a re-analysis of the deposited data

How the results depend on the processing

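No named knockdown value that passed changed sign under the alternatives, but values near 0 that did not pass did. In siQKI, SDHB (-0.06) and SDHC (-0.04) reached 0.01 and 0.03, and COX8A (0.03) and COX6A1 (0.02) fell to -0.06 and -0.01 without single libraries. In siRBFOX2, SDHC (-0.07) and ATP5MC2 (-0.01) reached 0.01 and 0.05. In siQKI, 12 members higher became 24 with upper quartile scaling, 28 with the total without chrM, 7 without the mean-variance trend and 1 with a fold change of at least 1.5 required, and 4 lower became 1, 0, 0 and 0, and 1 at an adjusted p under 0.01. In siRBFOX2, 3 higher became 7 with the total without chrM, 1 without siCtrl replicate 3 and siRBFOX2 replicate 2 (chosen after seeing the data), and 0 without the trend, at an adjusted p under 0.01 or with the fold required. Its 13 lower became 8 with upper quartile scaling, 5 with the total without chrM, 4 without the trend, 6 without those 2 libraries, 5 at an adjusted p under 0.01 and 0 with the fold required. Between the knockdowns, 14 higher became 6 without the trend, 9 at an adjusted p under 0.01 and 0 with the fold required. The 1 lower became 3 without those 2 libraries and 0 without the filter, with upper quartile scaling, with only the groups compared, with the replicate block, without the trend and at both stricter thresholds. Between the lines, 7 higher became 2 with the values as deposited and 12 at 1.5-fold, and the median became -0.26 with the values as deposited.

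Leaving out 1 library gave 7 to 18 members higher and 1 to 5 lower in siQKI, 0 to 4 higher and 5 to 16 lower in siRBFOX2, and 9 to 16 higher and 0 to 2 lower between the knockdowns, with medians of 0.01 to 0.09, -0.08 to 0.01 and 0.04 to 0.12. The lowest counts came without siCtrl replicate 3 (siQKI 7 higher, siRBFOX2 0 higher), siQKI replicate 3 (siQKI 1 lower), siCtrl replicate 2 (siRBFOX2 5 lower), and siQKI replicate 1 or siRBFOX2 replicate 2 (between the knockdowns 9 higher). Between the lines the ranges were 5 to 7 higher, 3 lower (without HPAF-II replicate 2) to 12 lower (without HPAF-II replicate 3), and medians of -0.02 to 0.11. Scaling moved the median of all genes by less than 0.1, and the share of higher among all calls went from 45.2% to 58.0% and 59.7% in siQKI and from 45.3% to 53.5% and 62.6% in siRBFOX2 with the upper quartile and the total without chrM.

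Libraries of the same replicate number shared little, with correlations of their deviations of -0.0325 to 0.0235, so the numbers were not taken as pairs. With the replicate block, 12 members were higher and 4 lower in siQKI, 4 and 12 in siRBFOX2, and 15 and 0 between the knockdowns. Depth in fragments is unknown, 3 libraries per group and 1 line per subtype limit the precision, and complex V and complex I members that overlap other genes are uncertain.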

Other observations

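Mitochondrial ribosomal proteins and housekeeping genes had more lower than higher calls in each knockdown, and both comparisons share the siCtrl libraries. Over all genes tested, 14.9% were higher and 18.1% lower in siQKI, and 12% were higher and 14.5% lower in siRBFOX2. Of 77 mitochondrial ribosomal proteins, which translate the subunits encoded by mitochondrial DNA, 1 was higher and 41 lower in siQKI and 2 were higher and 41 lower in siRBFOX2 (limma, adjusted p under 0.05), with median log2 fold changes of -0.16 and -0.17 against 0.03 and 0.01 for all genes tested. With libraries scaled to their total without chrM the counts were 7 higher and 26 lower, and 4 higher and 29 lower. Of 13 mitochondrial housekeeping genes (channels, import, proteases, chaperones and prohibitins), 10 were lower in each knockdown and none higher by limma (10 and 12 lower and 0 higher at an unadjusted p under 0.05), and 9 and 6 were lower and none higher with the total without chrM. Of 14 genes of the tricarboxylic acid cycle, 2 were higher and 7 lower in siQKI and 2 were higher and 8 lower in siRBFOX2, but with the total without chrM 3 were higher and 3 lower, and 2 were higher and 4 lower. The 2 that rose in both were CS, citrate synthase, at 30667 to 33100 normalized counts in siCtrl, 45811 to 48450 in siQKI and 48836 to 51496 in siRBFOX2 libraries, and IDH2, the mitochondrial NADP-dependent isocitrate dehydrogenase, at 23358 to 26699, 36644 to 39025 and 28798 to 32151. Neither gene's knockdown libraries overlapped siCtrl, with log2 fold changes of 0.57 and 0.66 for CS and 0.58 and 0.28 for IDH2.

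Genes around a member were compared between the lines within 2000000 bases on either side, for members picked after their values were seen. Around UQCRFS1 (log2 ratio of HPAF-II to PANC-1 -2.16), 9 expressed genes had a median ratio of -1.95. Around COX6B1 (-1.48), 104 genes had -1.50, around COX6B2 (-1.14), 88 genes had -1.55, and around UQCRC1 (-2.02), 101 genes had -1.21, against 0.04 for 18513 expressed genes with a symbol. Other members did not share the level of their surroundings. Around NDUFB2 (-1.22) 30 genes had 0.25, around NDUFS8 (-1.15) 81 genes had 0.08, and around ATP5MC1 (-1.09) 90 genes had -0.10, while NDUFA3 on chromosome 19 had -0.19 among 104 genes at -1.38. Around SDHA (1.61) and NDUFS6 (1.20), which share the same 30 neighbours in chromosome 5, the median was -0.18, and around ATP5IF1 (1.31) it was -0.47 over 60 genes. The values are described only, and gene copy number was not measured.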
